A study of Mus musculus with 6 samples.

Results

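Imprinted genes are genes transcribed from only the maternal or only the paternal chromosome in some or all tissues. They lie in domains, each under an imprinting control region whose DNA methylation is laid down in the germ line of one parent and kept after fertilisation, in part by the zinc finger protein ZFP57 with its partner TRIM28. Many domains pair protein-coding genes that act on fetal growth, placenta or brain with a long non-coding RNA from the opposite parental chromosome, and in mouse embryonic stem (ES) cells the methylation is known to be lost or gained at some domains in culture.

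A list of 48 imprinted genes was followed here, arranged by domain. Genes were found by matching the RefSeq identifier of each entry in the expression table to a gene symbol, and for a symbol with several entries the entry with the highest mean was kept. In this way 46 of the 48 genes were found among 19338 gene symbols and 20633 entries, and these 46 genes had 57 entries in all. Slc22a2 and Magel2 were not analysed here.

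The 6 nuclear RNA libraries came from mouse ES cells of genotype Rybp fl/fl;Yaf2-/-, grown with LIF on gelatin, in which Yaf2 had been deleted with CRISPR/Cas9 and a tamoxifen-activated Cre recombinase can excise the floxed part of Rybp. RYBP and YAF2 are related subunits of variant Polycomb repressive complex 1. Cells of 3 libraries were untreated (UNT), and those of the other 3 had grown for 96 hr in 4-hydroxytamoxifen (OHT) at 800 nM. All 6 libraries thus shared the Yaf2 deletion and came from a single engineered line, and the rRNA-depleted nuclear RNA is rich in unspliced transcripts.

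The value used for each entry is the base mean, the authors' mean of library-size-normalized counts over all libraries of both groups. It carries no replicate error, library depth is unknown, and OHT was not compared with UNT. Nor were reads assigned to parental chromosomes, so a level is the sum over both alleles. Levels of different genes were set side by side per length, as normalized counts per kb of the gene's genomic span ("per kb"), and the base mean is given beside a level as the counts behind it. Order by base mean, which grows with gene length, is given only beside an order per kb. Counts had been collected over whole gene spans. Among 488 pairs of entries of the same gene that share an end but not a start, the longer entry had at least the base mean of the shorter in 97.3%, and in 98.3% of the 172 pairs whose longer entry has the shorter exons. A level "per kb of exon" divides these same whole-span counts, intron reads included, by the exon length. It is an alternative scaling by length, not the density of reads in exons. Strands had been kept apart, since a gene lying inside a larger gene exceeded it in 4 of 156 pairs on the same strand but in 32 of 65 pairs on opposite strands. Of the genes altered in this line, Rybp had a base mean of 13983 over both groups and Yaf2 one of 3.24.

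The ES cell label was checked against marker genes. All 7 ES cell markers with an entry lay above the median level of all entries, 10.7 per kb, with Sox2 at 1951, Pou5f1 at 639 and Nanog at 410 per kb, and Esrrb was lowest at 66.1 per kb. Fibroblast markers, which would mark feeder cells, ran from 0.0450 per kb (Postn) to 22.0 per kb (Col1a1), with a median of 3.25. Trophoblast markers ran from 0.193 to 11.4 per kb, primitive endoderm markers from 1.81 to 5.80 per kb, and neuronal markers from 0.362 to 59.0 per kb, the highest being Tubb3.

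Imprinted genes covered most of the range of the transcriptome. None of the 46 genes was listed at 0, whereas 1435 of the 20633 entries were. Their median level was 38.4 per kb, at percentile 71.3 of all entries, with quartiles of 8.18 and 120.75 per kb against 0.641 and 46.5 for all entries. In all, 30 of the 46 genes (65.2%) were at or above the median level of all entries, where 50.0% would be by definition. A total of 13 (28.3%) were among the top 10.0% of entries and 4 (8.70%) among the lowest 25.0%. On base mean, with no correction for length, 27 of 46 (58.7%) reached the median of all entries. The highest gene per kb of span, Phlda2, and the lowest, Asb4, were 2519-fold apart, and in several domains high and low genes were neighbours.

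**Figure D1:**
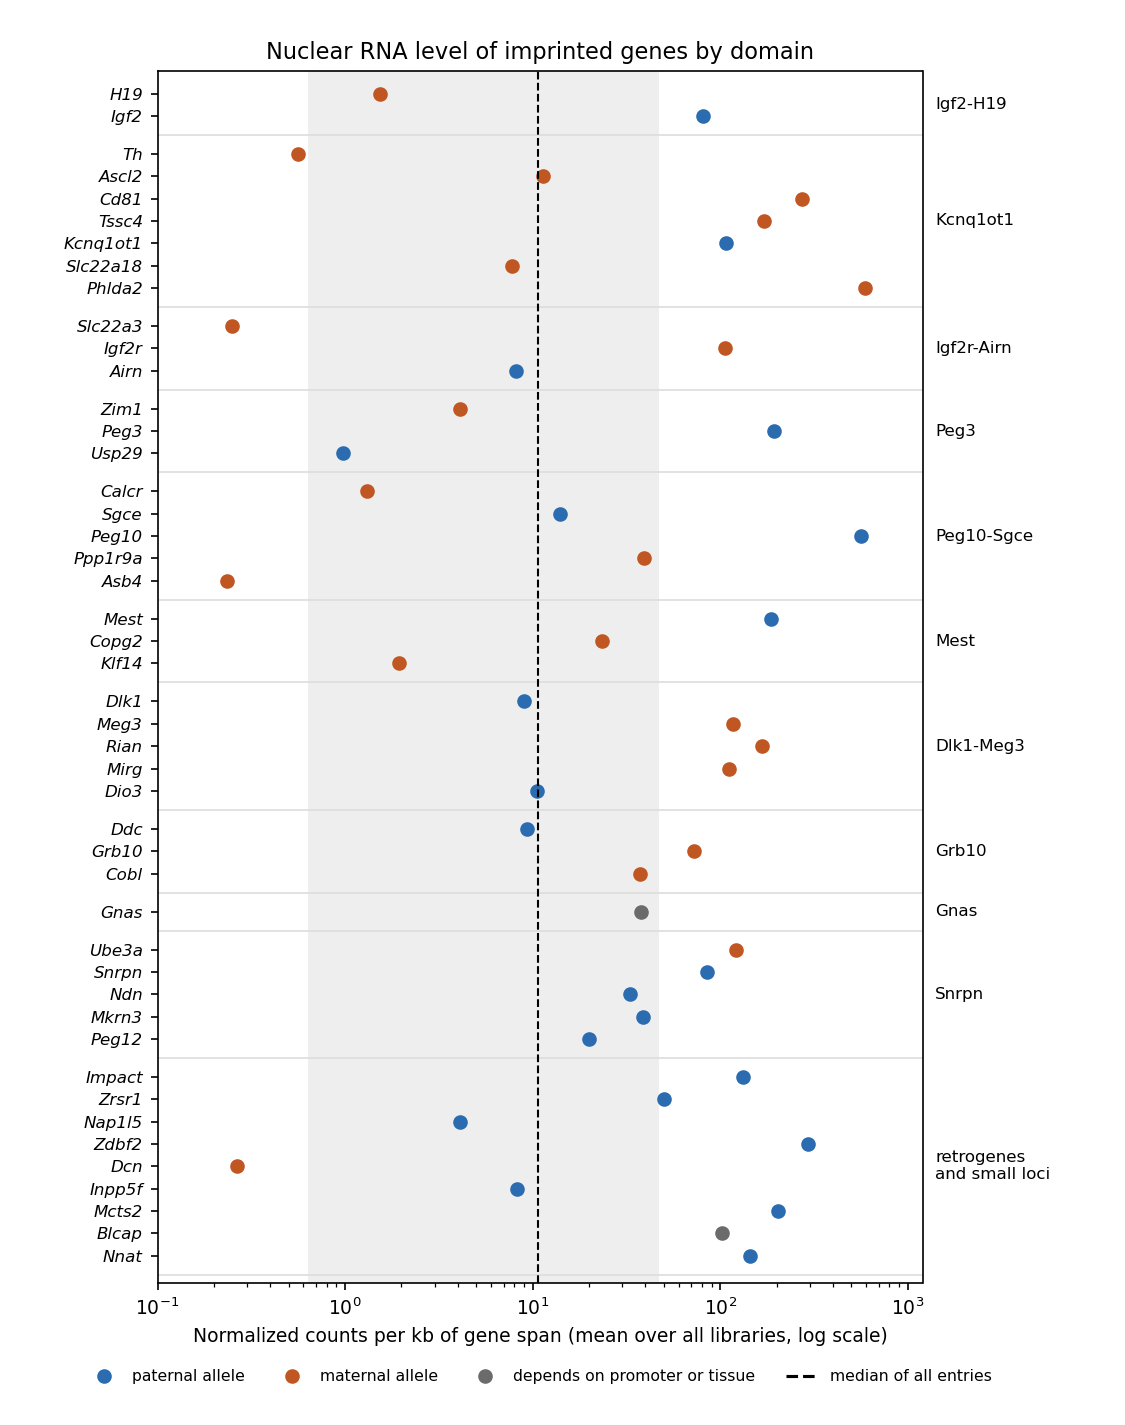
Level of each imprinted gene in normalized counts per kb of gene span, the mean over all libraries, on a log axis, grouped by domain and ordered by position within it. Colour gives the allele known to be expressed, the dashed line is the median of all entries (10.7 per kb) and the grey band spans their quartiles (0.641 to 46.5 per kb); Phlda2 and Peg10 lie farthest right and Asb4, Slc22a3 and Dcn farthest left.

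The domain on distal chromosome 7 holds both the Igf2-H19 and the Kcnq1ot1 clusters. Igf2, the paternally expressed growth factor, had a base mean of 849 and a level of 80.6 per kb. H19, a maternally expressed non-coding RNA encoded between 142575529 and 142578143 on the minus strand, had a base mean of 4.03 and a level of 1.54 per kb. Igf2 thus exceeded its reciprocal partner 52.3-fold per kb, or 79.9-fold when its level was taken from the downstream of its starts, at 123.1 per kb. H19 lay at percentile 31.3 of all entries, the lowest rank among the 6 long non-coding RNAs of the list.

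In the neighbouring cluster, Kcnq1ot1 is the paternally expressed RNA that silences genes in cis. It was one of the most heavily counted members, with a base mean of 10032 over a span of 93.1 kb, or 107.8 per kb. Kcnq1, which contains the whole of Kcnq1ot1 on the opposite strand, had a base mean of 382 and a level of 1.19 per kb, 90.2-fold below the RNA inside it. This fold holds per kb of span. Kcnq1ot1 is exon over its whole span, and it lay at percentile 89.2 per kb of span but 52.3 per kb of exon. The level of Kcnq1 per kb of exon is not given here. Of the maternally expressed genes around it, Phlda2, which restrains placental growth, was the highest member of the list at 593 per kb (base mean 591, span 0.997 kb). The tetraspanin gene Cd81 followed at 273 per kb and Tssc4, a factor of spliceosome assembly, at 170.5 per kb. The top rank of Phlda2 holds for the span only, since per kb of exon it had 781 and Cd81 2702.

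The remaining maternally expressed genes of this cluster were lower. Ascl2, a transcription factor of the trophoblast lineage, had 11.3 per kb (base mean 27.6) and Slc22a18, a solute carrier, had 7.76 per kb (base mean 199). Th, the rate-limiting enzyme of catecholamine synthesis, had 0.558 per kb, a base mean of 4.06. Phlda2 and Slc22a18 are direct neighbours, and their levels differed 76.4-fold. Per kb of exon they were nearer, at 781 and 130.

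At the Igf2r-Airn domain on chromosome 17 the protein-coding gene was the higher partner. Igf2r, whose receptor delivers IGF2 to lysosomes, had a base mean of 9318 and 106.8 per kb. Airn, the paternally expressed antisense RNA that starts inside Igf2r and overlaps 28291 bp of it, had a base mean of 606 and 8.17 per kb, 13.1-fold less. Per kb of exon the gap was smaller, with 1049 for Igf2r and 545 for Airn. Slc22a3, an organic cation transporter known to be imprinted in placenta, was near the floor at 0.2497 per kb (base mean 21.9).

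The Peg3 domain at the proximal end of chromosome 7 had the same pattern of a single high gene. Peg3, a paternally expressed zinc finger gene, had 193.9 per kb (base mean 5145). Usp29 starts from the same promoter region as Peg3 in the opposite direction, with 161 bp between the annotated starts, is also paternally expressed and encodes a deubiquitinase-like protein. It had 0.973 per kb over a span of 236.6 kb, 199-fold below Peg3, and its base mean was 230. Per kb of exon Usp29 had 30.5 and Peg3 592. Zim1, the maternally expressed zinc finger gene next to Peg3, had 4.08 per kb (base mean 103).

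A like contrast across a shared promoter region was seen at Peg10-Sgce on chromosome 6. Peg10, derived from a retrotransposon and required for the placenta, had 567 per kb (base mean 7495) and was the second highest member. Sgce, which encodes epsilon-sarcoglycan and starts 129 bp away on the other strand, had 13.9 per kb (base mean 1014), a 40.7-fold difference. Per kb of exon they were much nearer, at 1124 for Peg10 and 571 for Sgce. Ppp1r9a, the gene of the actin-binding protein neurabin, had a base mean of 10347 over a span of 262 kb, which gave a level of 39.4 per kb. Calcr, the calcitonin receptor gene, had 1.32 per kb (base mean 103), and Asb4, of the ankyrin repeat and SOCS box family, had 0.235 per kb (base mean 11.7).

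In the Mest domain, also on chromosome 6, Mest was the highest gene per kb of span. This paternally expressed gene of a hydrolase-like protein had 185.7 per kb (base mean 2777). Copg2, a coatomer subunit gene that meets Mest tail to tail with a 909 bp overlap on opposite strands, had 23.4 per kb (base mean 3496), and the single-exon transcription factor gene Klf14 had 1.95 per kb (base mean 5.95). Per kb of exon Mest and Copg2 were nearer, at 1165 and 883, and by base mean Copg2 was the higher.

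The order was inverted in the Dlk1-Meg3 domain on distal chromosome 12, where the maternally expressed non-coding RNAs stood above the paternally expressed coding genes. Their expression is known to differ between pluripotent cell lines. Rian, a host of snoRNAs, had 167.9 per kb (base mean 9699), Meg3 117.8 (base mean 3619) and Mirg, a host of microRNAs, 110.8 per kb (base mean 1605). Dlk1, a membrane protein gene of the Notch ligand type, had 8.99 per kb (base mean 94.3), and Dio3, the deiodinase that inactivates thyroid hormone, had 10.5 per kb (base mean 21.4). Rian exceeded Dlk1 18.7-fold. Rtl1, a further coding gene of the domain, had 0.214 per kb.

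In the Grb10 domain on chromosome 11, Grb10, an adaptor that dampens insulin signalling, had 72.8 per kb (base mean 7784). Cobl, which encodes an actin nucleator, had a base mean of 8517 and a level of 37.3 per kb. Per kb of exon Grb10 had 1538 and Cobl 1537. Ddc, the aromatic amino acid decarboxylase gene, had 9.38 per kb (base mean 789). Gnas on chromosome 2, which encodes the stimulatory G protein alpha subunit from the last of several promoters, had 37.9 per kb (base mean 1853) in its most counted entry. That entry starts 32.1 kb before the last of the Gnas starts, from which the level was 97.0 per kb.

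All 5 genes of the Snrpn domain on chromosome 7 with an entry lay above the median of all entries per kb of span, but only 2 of the 5, Ube3a and Snrpn, did so per kb of exon. Ube3a, a ubiquitin ligase gene imprinted in neurons, had 121.7 per kb (base mean 7434). Snrpn, a splicing protein gene, had 84.7 per kb (base mean 1916). The single-exon genes were lower, with Mkrn3, a RING finger gene, at 38.8, Ndn of the MAGE family at 33.0 and Peg12 of the FRAT family at 20.02 per kb. Their base means were 98.9, 122 and 52.9, all under the median of all entries, 236. Per kb of exon they lay at percentiles 40.7, 39.3 and 34.6, so these 3 genes passed the median only per kb of genomic span. Snhg14, the non-coding RNA gene beside Snrpn, had 245 per kb in an entry annotated from 59969577 to 59974431. The level holds for this stretch only.

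Among retrogenes and small imprinted loci, levels ran from 0.266 to 294.7 per kb. Zdbf2, a zinc finger gene, was highest at 294.7 per kb, with a base mean of 12175. The other entry of Zdbf2 had a base mean of 8791 with the same annotated span, so the true length behind this level is uncertain. Impact, a regulator of the kinase GCN2, had 133.0 per kb (base mean 2798), and Inpp5f, a phosphoinositide phosphatase gene, had 8.22 per kb (base mean 699). Dcn, which encodes the matrix proteoglycan decorin and is imprinted in placenta, was near the floor at 0.266 per kb (base mean 10.2). Of the 6 fibroblast markers, 4 were below the median of all entries, and Col1a1 at 22.0 and Thy1 at 21.2 per kb were above it.

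A retrogene is an intronless copy of another gene, and 3 members of this kind were compared with their parent gene and with the host gene in which or beside which they lie. Mcts2, copied from the translation factor gene Mcts1 and placed at the H13 locus, had 203.7 per kb, 4.64-fold above Mcts1 and 4.37-fold above H13. These folds hold per kb of span, which for the intronless Mcts2 is exon only. Its base mean was 186, below the 560 of Mcts1 and the 802 of H13. Zrsr1, inside Commd1, had 50.5 per kb (base mean 227), 2.37-fold above Commd1 and close to the 59.1 per kb of its parent Zrsr2, a splicing factor gene. The base means of Commd1 (1835) and Zrsr2 (1368) were higher. Nap1l5, inside Herc3, was below its host per kb as well, with 4.09 per kb (base mean 7.55) against 21.9 for Herc3. Its parent Nap1l1, a nucleosome assembly protein gene, had 494 per kb. Nnat, the neuronatin gene, which lies wholly inside Blcap on the other strand, had 143.8 per kb (base mean 237) against 102.03 (base mean 1020) for Blcap, whose small membrane protein is expressed from both alleles in many tissues. Reads of a retrogene and its parent can be shared where their sequences are near-identical. The authors had filtered the gene set for mappability and against highly similar transcripts, and how reads that matched both were counted is not given in the sources used here.

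Several members have entries with different starts and a common end, and the difference between the base means gives the counts that lie between the starts. It shows where along the gene the RNA lay. For Mest, the stretch of 4544 bp between the upstream start at 30733506 and the downstream start at 30738050 on chromosome 6 held 0.537 normalized counts, or 0.118 per kb, whereas the body from the downstream start held 266.7 per kb. The upstream level was 0.0443% of the downstream level, and of the 488 pairs of all genes 5.74% were under 1%. The kept entry of Mest therefore dilutes its level, which was 266.7 per kb from the downstream start.

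Ddc and Igf2 were also counted almost wholly from their downstream starts. For Ddc the 7736 bp between the starts held 0.142 per kb against 10.3 after them (1.37%). For Igf2 the 3809 bp upstream held 5.39 per kb against 123.1 (4.38%). At Gnas the entries start at 174284320, 174297859, 174327699 and 174330006 on chromosome 2, in the order in which the Nesp, XL-alpha-s, exon 1A and Gs-alpha promoters are known to lie. The stretch from the second of these starts to the last held 7.17 per kb and the body from the last start 97.0 per kb. The 2307 bp between the exon 1A and Gs-alpha starts held at least 22.0 per kb, or 22.7% of the body. This is a lower bound, because the exon 1A entry ends 242 bp before the Gs-alpha entry.

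Grb10, Cobl and Meg3 showed the opposite arrangement, with the upstream stretch at least as dense as the body. At Grb10 it held 78.1 per kb against 72.3 (108%), and at Cobl 43.7 against 35.4 (124%). At Meg3 the 4393 bp after the upstream start at 109541005 held 205 per kb against 103.2 in the body (199%). Over all 488 pairs the median was 41.9%, with quartiles of 13.1% and 88.1%, and 100 pairs (20.5%) exceeded 100%. Dcn had 0.163 per kb upstream and 0.273 in the body, too few counts to place a start.

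**Figure D2:**
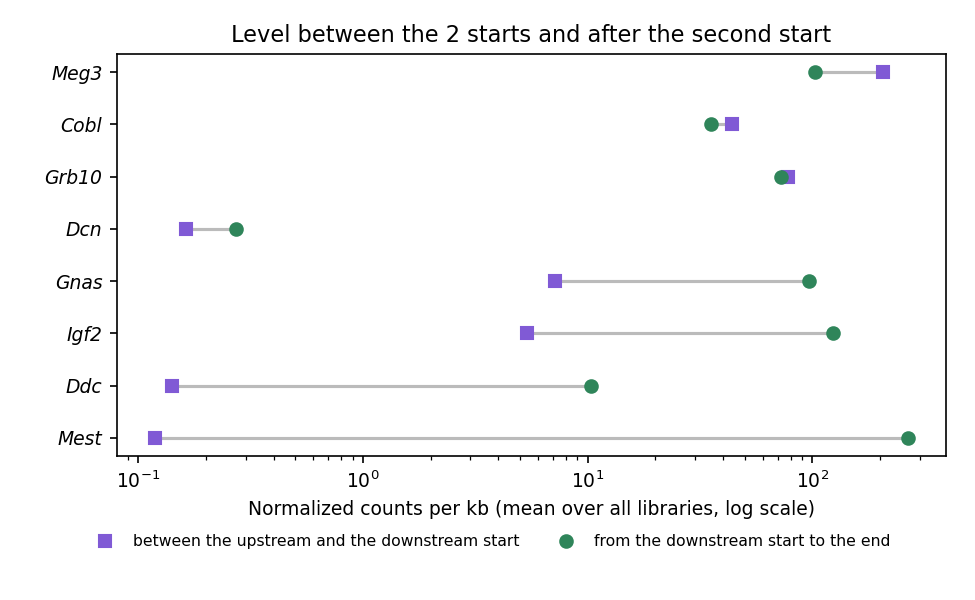
Normalized counts per kb, the mean over all libraries on a log axis, between the upstream and the downstream start (squares) and from the downstream start to the gene's end (circles) for the imprinted genes with nested entries; Gnas is drawn from its XL-alpha-s start to its Gs-alpha start. The symbols of Mest lie farthest apart (0.118 and 266.7 per kb), and at Meg3, Cobl and Grb10 the square is to the right of the circle.

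The DNA before the starts of Mest and Meg3 is shown because these genes marked the ends of this range. Each line gives the 250 bases upstream of a RefSeq start in build GRCm38.p6 (mm10), 5′ to 3′ on the transcribed plus strand, with CpG dinucleotides, the sites of DNA methylation, in capitals. The Mest windows are chr6:30733256-30733505 for the upstream start, which had almost no counts, and chr6:30737800-30738049 for the downstream start, from which the gene was counted. The Meg3 windows are chr12:109540746-109540995 for the upstream start, which was used, and chr12:109545148-109545397 for the downstream start.
Mest upstream start: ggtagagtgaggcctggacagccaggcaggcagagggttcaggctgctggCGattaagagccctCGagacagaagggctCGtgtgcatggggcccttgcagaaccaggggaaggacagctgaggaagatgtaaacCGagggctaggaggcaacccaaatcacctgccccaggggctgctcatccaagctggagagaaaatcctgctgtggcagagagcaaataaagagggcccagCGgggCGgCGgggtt
Mest downstream start: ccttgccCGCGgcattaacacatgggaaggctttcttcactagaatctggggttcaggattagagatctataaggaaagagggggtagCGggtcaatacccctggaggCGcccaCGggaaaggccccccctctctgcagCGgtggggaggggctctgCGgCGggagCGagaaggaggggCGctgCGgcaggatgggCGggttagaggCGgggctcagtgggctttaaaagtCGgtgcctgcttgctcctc
Meg3 upstream start: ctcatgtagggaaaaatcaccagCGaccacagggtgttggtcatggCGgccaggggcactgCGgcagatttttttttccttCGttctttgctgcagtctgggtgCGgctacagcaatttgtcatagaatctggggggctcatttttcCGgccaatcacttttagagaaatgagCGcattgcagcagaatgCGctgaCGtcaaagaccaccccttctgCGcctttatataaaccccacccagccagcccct
Meg3 downstream start: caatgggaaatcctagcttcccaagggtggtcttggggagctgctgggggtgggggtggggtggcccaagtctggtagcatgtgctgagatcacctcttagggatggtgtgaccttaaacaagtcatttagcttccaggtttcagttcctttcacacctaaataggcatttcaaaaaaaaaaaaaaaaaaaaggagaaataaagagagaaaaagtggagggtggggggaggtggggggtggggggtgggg
In Mest, 14 CpGs lay before the downstream start and 7 before the upstream start. In Meg3, 10 CpGs lay before the upstream start and 0 before the downstream start. At both genes the start from which the RNA was counted was the one richer in CpG. Igf2 differed, with 14 CpGs in the 300-base window (250 bases before and 50 after the start) of the upstream start and 7 in that of the downstream start.

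A window of 300 bases at the start of the kept entry was found in the RefSeq promoters for 38 of the 46 genes. The median number of CpGs in it was 16, against 7 over all 32851 promoter windows and 16 over the 18833 windows of genes with an entry. Among the 32 genes with at least 7 CpGs, 24 were at or above the median level of all entries, with a median of 76.7 per kb. Among the 6 genes with fewer, the median was 7.97 per kb, and Rian, with 0 CpGs in its window, was the only gene at or above the median. The span of Rian, unlike that of the other members, came from the gene record and not from a transcript. Its window may therefore not lie at the start of its entry. The share of all genes at or above the median on each side of this cut was not computed. These counts therefore cannot show whether the trait is particular to imprinted genes. The window of Meg3, in the same domain as Rian, had 13 CpGs.

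ZFP57 binds the methylated hexamer TGCCGC, which was searched on both strands as TGCCGC and GCGGCA. It occurred in the windows of 10 of the 38 genes (26.3%), against 11.6% of all windows and 15.9% of the windows of genes with an entry. On the transcribed strand alone it occurred in 2 of the 38 (5.26%), against 5.65% of all windows. The genes were Nap1l5 and Calcr, with 2 or more matches each, and Zim1, Mcts2, Nnat, Igf2, Snrpn, Copg2, Meg3 and Grb10. They comprised 5 of 18 paternally and 5 of 19 maternally expressed genes. The window at the downstream start of Mest, which is not the start of its kept entry, held 2 matches, and the window at its upstream start held 0. Igf2 went the other way. Its match lay in the window of the upstream start, and the window of the downstream start, from which it was mostly counted, held 0. A match is a stretch of letters, not a measured binding site.

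**Figure D3:**
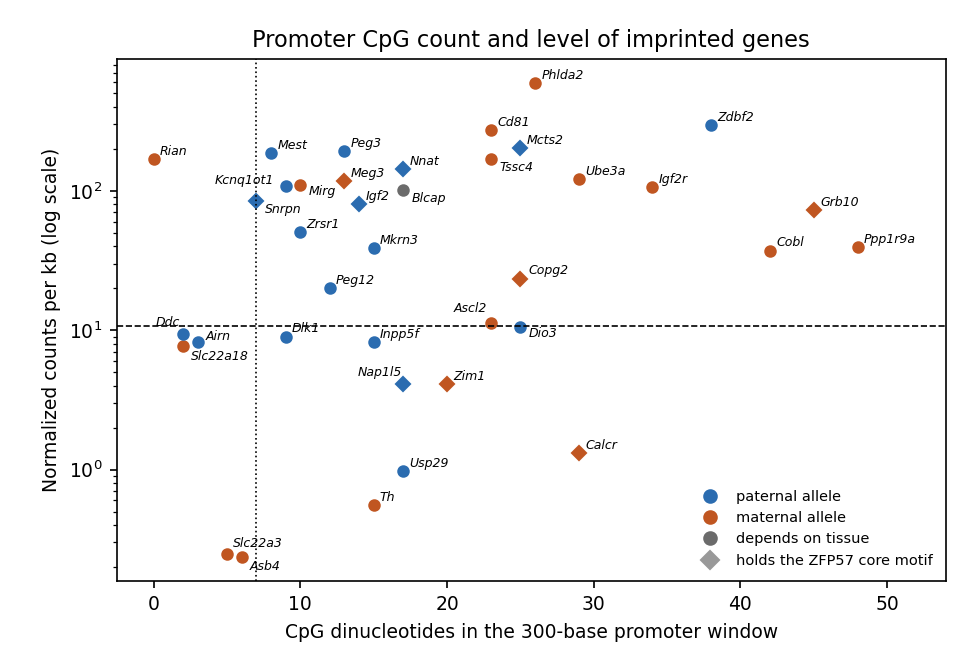
Number of CpG dinucleotides in the 300-base promoter window of 38 imprinted genes against their level in normalized counts per kb (log axis). Colour gives the expressed allele, diamonds hold the ZFP57 hexamer, and the dotted and dashed lines are the medians of all windows (7 CpGs) and all entries (10.7 per kb); of the 6 genes left of the dotted line, 5 lie below the dashed line and Rian lies above it.

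Genes expressed from the paternal and the maternal allele had overlapping levels. The 22 paternally expressed genes had a median of 44.7 per kb (percentile 74.0 of all entries) and ranged from 0.973 to 567, and the 22 maternally expressed genes had a median of 30.4 per kb (percentile 66.3) and ranged from 0.235 to 593. The order of the medians turned when exon length replaced the span, with percentiles of 62.9 and 72.0, so no order of the alleles is given. The 30 genes imprinted in many tissues had a median of 76.7 per kb (percentile 84.1) with 0 in the lowest 25.0% of entries, and the 16 genes imprinted in placenta or a few tissues had a median of 17.4 per kb (percentile 56.3) with 4 in the lowest 25.0%. Per kb of exon these medians lay at percentiles 71.7 and 69.0, with 3 and 2 genes in the lowest 25.0%, and by base mean at 63.9 and 67.5, so no order is given for these groups either.

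Several transcripts host microRNAs, the small RNAs that pair with messages through bases 2 to 8, the seed. The levels above are those of the host transcripts, and mature microRNAs were not measured. Mirg held 10 annotated hairpins, Rian 3, Calcr 2, and H19, Igf2, Mest and Usp29 held 1 each. For Meg3 only 1 hairpin was counted, but its 3 mature sequences came from the separate microRNA genes Mir1906-1 and Mir770. The sequences shown are the pair from Mirg with a common seed and those of the highest and a low host gene with a single hairpin, as RefSeq gives them, 5′ to 3′ with the seed in capitals.
miR-453 (Mirg): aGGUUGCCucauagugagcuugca
miR-496a-5p (Mirg): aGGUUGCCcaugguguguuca
miR-335-5p (Mest): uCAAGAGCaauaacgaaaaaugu
miR-675-5p (H19): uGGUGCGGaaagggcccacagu
The seed GGUUGCC of miR-453 and miR-496a-5p was the only seed that occurred more than once among the mature sequences hosted by imprinted genes. Of the hosts, Mest had 185.7 per kb and H19 1.54 per kb, so the transcripts that carry miR-335 and miR-675 stood 120.5-fold apart, or 173-fold with Mest taken from its downstream start.

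Genes whose products set, keep or remove DNA methylation and related marks at imprinted loci were listed separately. Of 17 such genes, all 15 with an entry were above the median of all entries, and their median was 125 per kb. Trim28 had 1543 per kb, Zfp57 492 and the methylcytosine dioxygenase gene Tet1 369 per kb. The lowest were the de novo methyltransferase gene Dnmt3a at 19.2, the histone demethylase gene Kdm1b at 24.3 and Smchd1, a chromatin protein gene, at 55.7 per kb. The DNA methyltransferase gene Dnmt1 had 134.9 per kb.

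A further list of 35 imprinted genes, chosen as other members of the same and additional domains, had entries for 30. Their median was 7.36 per kb (percentile 45.3), and 11 of 30 (36.7%) were at or above the median of all entries, against 65.2% of the 46 genes described above. Snhg14, the cell cycle inhibitor gene Cdkn1c at 138.4 per kb and the amino acid transporter gene Slc38a4 at 119.2 per kb were highest. Htr2a, a serotonin receptor gene, at 0.0618, Zim3 at 0.192 and Rtl1 at 0.214 per kb were the lowest detected, and Ins2 and Kcnk9 were listed at 0.

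**Figure D4:**
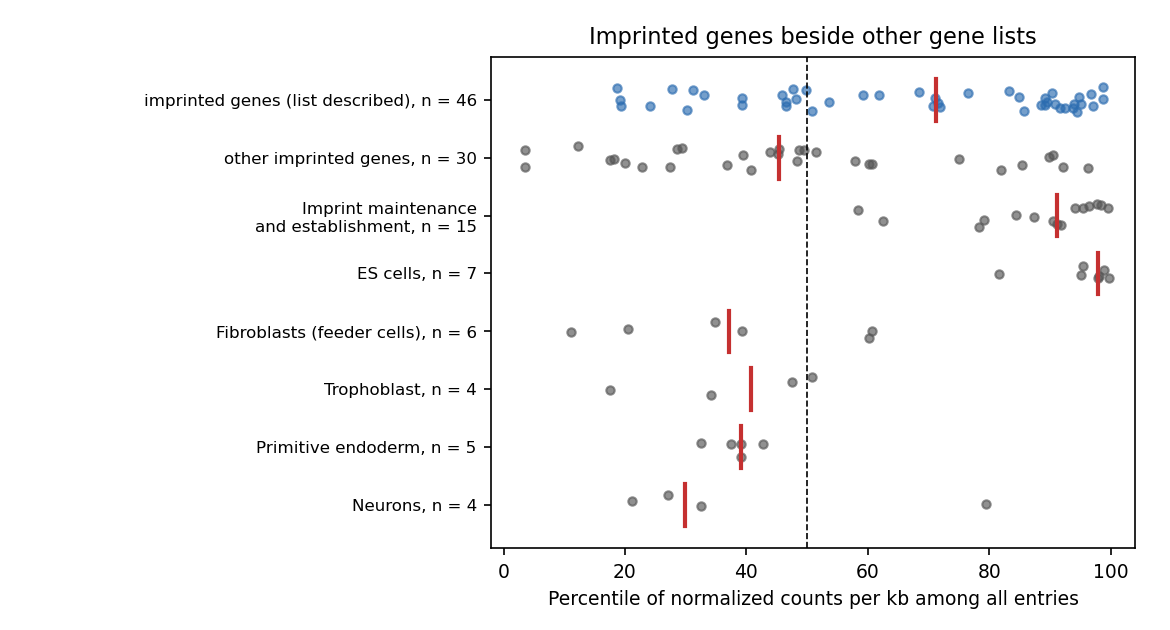
Percentile of the level per kb among all entries for each gene (points) and the median of each list (vertical bars), with the number of genes in the list. The 46 imprinted genes spread from the lowest 25.0% of entries to the highest with a median at 71.3, the further imprinted genes have a median at 45.3, and the genes of imprint maintenance and establishment (with Tet1 and Tet2) and the ES cell markers lie to the right of the dashed line at 50.0.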

How the data were processed

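Nuclear RNA was measured in 3 UNT and 3 OHT libraries. According to the study's methods, rRNA reads were first removed (bowtie2), the rest was mapped to mm10 by STAR with a second pass in bowtie2, and read pairs were counted over a filtered list of RefSeq genes without redundant entries. The authors ran DESeq2 with its defaults. Versions are not given in the sources used here. The base mean deposited by the authors is a signal, namely the library-size-normalized count averaged over every library of both groups. Other deposited columns hold the authors' comparison of OHT with UNT (moderated log2 fold change and standard error, Wald statistic, raw and adjusted p-value, threshold mark) and were not used. Without values per library, depth and replicate error are unknown and no test was run.

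Identifiers were matched to the RefSeq genes of GRCm38.p6, which is mm10, for 20450 entries and through GENCODE vM21 for the others, and 73 entries stayed unnamed. Spans were those of the GENCODE transcript (20261 entries) or else of the RefSeq gene (299). Nested entries had ends within 250 bp, starts at least 1000 bp apart and an inner base mean of at least 50, except that for imprinted genes no minimum was set. Steps were tested on simulated data with Python 3.11.15, numpy 2.4.6, pandas 2.3.3 and scipy 1.17.1. Every listed gene is named, with the 3 highest, the 3 lowest detected and any gene at 0 of the other gene lists, and neighbours or parents of retrogenes. Of the cell type markers, a selection is named. The genes, domains and lists were chosen with earlier results of these data known. Expressed alleles and the tissues of imprinting are background knowledge. Alternatives were another background, entries at 0 left out, summed entries, overlapping genes left out, exon length, a minimum base mean of 10, and for promoters the strand and the background.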

Additional observations from a re-analysis of the deposited data

How the results depend on the processing

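The share of genes at or above the median level per kb was 61.9% to 65.2% under 6 alternatives, with 20 to 30 genes as some alternatives leave genes out. The share at or above the median base mean was 51.6% to 60.9% under 4 alternatives. Without the 15 genes that overlap another gene, 16 of 31 (51.6%) reached the median base mean, since 11 of the 15 genes left out had reached it. The median percentile of paternally and maternally expressed genes was 62.9 and 72.0 with exon length, and 80.7 and 86.2 without the genes imprinted in a few tissues only, which leaves 20 and 10 genes. Both put the maternally expressed genes higher, against the order with the span, and the cause was not tested. On the transcribed strand alone the ZFP57 hexamer occurred in 2 of 38 windows (5.26%), against 5.65% of all windows. Exon length or base mean for genes imprinted in many or a few tissues, and the downstream starts of Igf2 and Mest in their ratios to H19, were tried after seeing the data and are given with those results. Levels per kb of exon for neighbouring genes and base means of retrogenes, hosts and parents were also added after seeing the data. So was the share of the further imprinted genes by base mean. The share of background windows with the hexamer was 11.6% or, for genes with an entry, 15.9%. No paired analysis was possible because the base mean holds no value per library. The count tests, the replicate block and leaving out replicates were not run for the same reason. A base mean cannot show whether a gene differs between libraries, and how firmly the genes near the floor are placed is unknown.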
